A study of Mus musculus with 8 samples.

Results

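Mature miR-206 (mmu-miR-206 on the array) and the slow-fibre miRNAs miR-208b (mmu-miR-208b) and miR-499 (mmu-miR-499) were followed in mouse skeletal muscle. They were taken by name, with earlier results of these data known, and all 3 are reported whatever their values. They are 3 of the 567 mouse miRNAs with probes on the array. Muscle RNA of 4 control and 4 diabetic samples was labelled with Cy3 and put on 1-colour Agilent miRNA arrays, 1 sample per array. Per the series' design text, the diabetic mice were C57BL/KsJ db/db and the controls C57BL/KsJ db+. The db allele disrupts the leptin receptor, and db/db mice are a model of obesity with high blood glucose. Age, sex, the muscle dissected and any pooling of animals are not given in the sources used here, so the p-values below measure only the spread between these samples, which may be technical.

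The labels do not all point the same way. Title, description and group entry name the same 4 control and 4 diabetic samples, but the strain entry gives db/db for the control samples and db+ for the diabetic samples. Directions below follow the titles. All 8 arrays lay on 1 slide. Its row 1 held the control samples and its row 2 the diabetic samples, so a row effect and a group effect cannot be told apart. In RNA from whole tissue, fewer cells of a type and less RNA per cell cannot be told apart either.

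All 3 belong to the muscle miRNAs often called myomiRs. miR-206 is nearly restricted to skeletal muscle, is switched on by myogenic factors such as MyoD, and is known from satellite cell differentiation, regeneration and the response to denervation. miR-208b and miR-499 are made from introns of myosin heavy chain genes, miR-208b from the slow myosin gene Myh7 and miR-499 from Myh7b, and are known as part of a circuit that keeps slow fibre genes on. In the RefSeq-based gene table of assembly GRCm38.p6, the Mir208b hairpin lay within Myh7 (and within the gene model Gm31251), and the Mir499 hairpin lay within Myh7b. Mir206 lay within the non-coding gene Lincmd1, as did Mir133b.

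The mature sequences below come from RefSeq (GRCm38.p6), 5′ to 3′, with the seed, bases 2 to 8, in capitals. They are printed because the seed decides which miRNAs share predicted targets, and because near-identical miRNAs can be hard for an array probe to tell apart. The array uses older names without an arm, so the arm (miR-206-3p, miR-208b-3p, miR-499-5p, and miR-208a-3p and miR-133b-3p for comparison) was assigned from the older naming and not from the files. All 5 names matched an entry.
miR-206: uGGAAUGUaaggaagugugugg
miR-208b: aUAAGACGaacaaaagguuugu
miR-499: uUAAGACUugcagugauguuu
miR-208a: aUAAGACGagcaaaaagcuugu
miR-133b: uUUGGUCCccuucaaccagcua

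The 22 bases of miR-206 lie at chr1:20679055-20679076 on the plus strand, and those of miR-133b at chr1:20682834-20682855 on the same strand. The 22 bases of miR-208b lie at chr14:54975710-54975731 on the minus strand, and the 21 bases of miR-499 at chr2:155622893-155622913 on the plus strand. The heart miRNA miR-208a, whose hairpin lay within the cardiac myosin gene Myh6, is at chr14:54949072-54949093 on the minus strand. miR-208b and miR-208a have the same seed and are identical at 19 of 22 positions. miR-208b and miR-499 share bases 2 to 7 but differ within the seed at its last base, and are identical at 10 of 21 positions from the 5′ end. miR-206 and miR-133b, which neighbour each other in the genome, have different seeds and match at 4 of 22 positions. The seed of miR-206 is known to be that of miR-1, an abundant muscle miRNA. The intensity of miR-1 was 7622 to 10703 on control and 7005 to 15088 on diabetic arrays. The rest of the miR-1 sequence was not compared, and binding of miR-1 by the miR-206 probes was not tested.

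Each of the 3 had 2 probes with 10 spots apiece on every array, and 0 of their spots were saturated. On a given array a probe was called detected if at least 50% of its non-outlier spots were flagged well above background. Detection separated the miRNAs sharply. For miR-206, 139 of 149 spots used were well above background, and it was detected on all 8 arrays. For miR-208b, 67 of 149 were well above background, and it was detected on 2 control and 2 diabetic arrays. For miR-499, 0 of 154 were well above background.

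The arrays differed in brightness. The 75th percentile of intensity over the 152 probes detected on all 8 arrays, which served to scale each array, was 308, 618, 336 and 327 on control arrays 1 to 4 and 359, 479, 413 and 219 on diabetic arrays 1 to 4. Control 2 was the brightest and diabetic 4 the dimmest, and between 102 (diabetic 4) and 147 (control 4) mouse miRNAs were detected per array. The lowest intensity at which a probe was detected ranged from 11.5 to 19.3. The median SD over the 126 tested miRNAs (those detected on at least 4 of the 8 arrays) was 0.43 in the control group and 0.23 in the diabetic group on the log2 scale. The label of skeletal muscle was borne out by miR-1, miR-133a and miR-133b, each detected on all 8 arrays. The heart miRNA miR-208a and the neural miRNAs miR-9, miR-124 and miR-137 were each detected on 0 arrays. Not all markers of other tissues were absent, since the liver miRNA miR-122 was detected on 5 arrays.

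The mean level of miR-206 was lower in the diabetic group, but the groups overlapped by 1 array and the difference did not pass the test. Its intensity, the mean of its 2 probes in the scanner's arbitrary units, was 334, 1025, 896 and 922 on control arrays 1 to 4 (794 ± 312, SD, n = 4). It was 361, 475, 476 and 65.1 on diabetic arrays 1 to 4 (344 ± 194, SD, n = 4). Control arrays 2, 3 and 4 lay above all diabetic arrays, control 1 lay below diabetic 1, 2 and 3, and diabetic 4 was far below the rest. The brighter probe, A_54_P1178, read 582, 1832, 1615 and 1678 on the control arrays and 654, 854, 867 and 120 on the diabetic arrays. The dimmer probe, A_54_P1177, read 86.5, 218, 176 and 167 on the control arrays and 67.7, 95.8, 84.6 and 10.52 on the diabetic arrays. On diabetic 4 this dimmer probe was not well above background, so there the level of miR-206 rests on the brighter probe. The probes followed each other over the arrays, with a Pearson r of 0.981 over the 8 arrays (description only, since both probes read the same RNA).

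**Figure D1:**
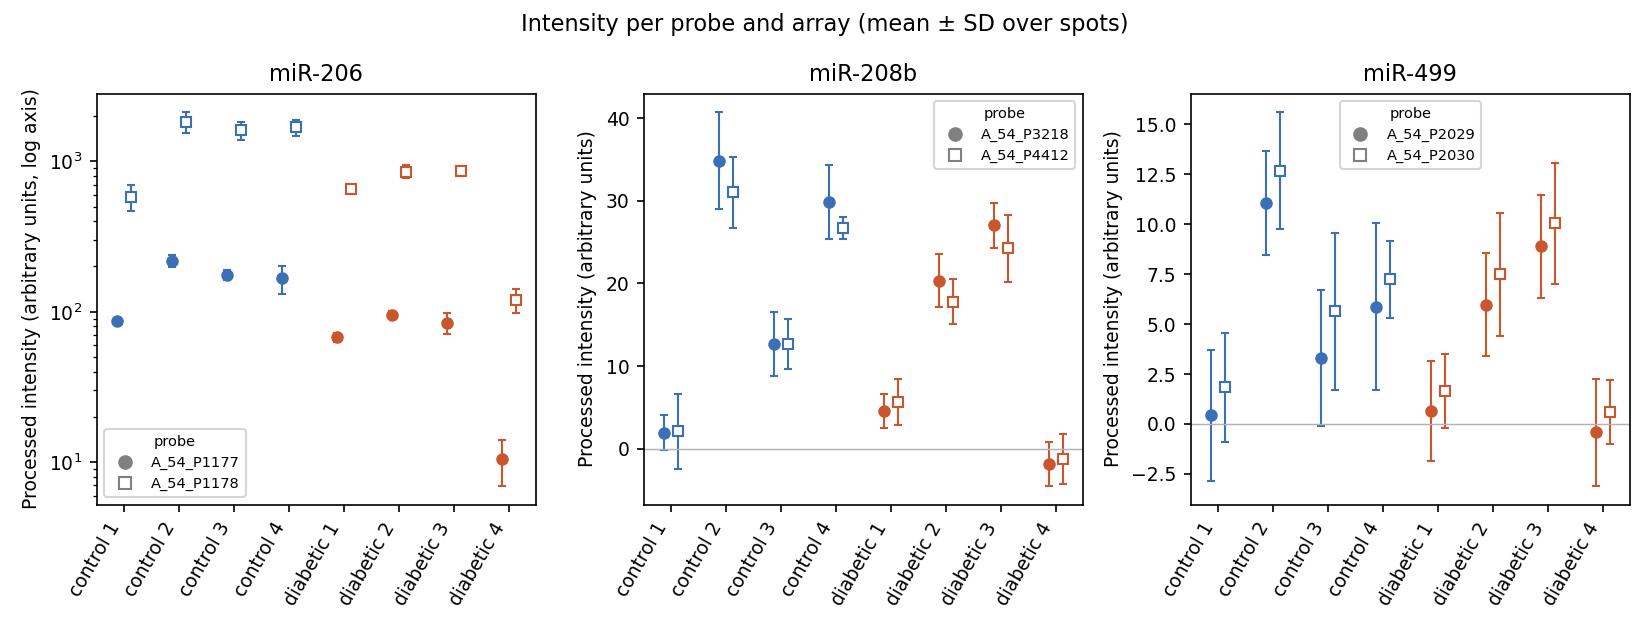
Processed intensity in arbitrary units (y axis, logarithmic for miR-206 and linear for miR-208b and miR-499) of each probe on each of the 8 arrays (x axis), as the mean with the SD over spots; filled circles and open squares are the 2 probes, blue is control and orange diabetic. miR-206 is lowest on diabetic 4 with both probes, miR-208b is near 0 on control 1 and diabetic 4, and miR-499 stays below 13 on every array.

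After scaling, the log2 level of miR-206 (0 is the array's 75th percentile) was 0.12, 0.73, 1.42 and 1.497 on control arrays 1 to 4, with a mean of 0.94 ± 0.65 (SD, n = 4). It was 0.0093, −0.0139, 0.20 and −1.75 on diabetic arrays 1 to 4, with a mean of −0.39 ± 0.92 (SD, n = 4). Control 1, just below diabetic 3, was the array that made the groups overlap. The difference, diabetic minus control, was −1.33 on the log2 scale (SE 0.44, 95% interval −2.30 to −0.36), a 2.51-fold difference of geometric means. In limma the unadjusted p was 0.0115 and the p adjusted over the 126 tested miRNAs was 0.132. At the adjusted threshold of 0.05, 0 of 126 tested miRNAs (0%) were lower on the diabetic arrays and 6 (4.76%) were higher. At an unadjusted limma p under 0.05, miR-206 was 1 of 13 miRNAs (10.3%) that were lower. Among the 126 differences only 1 was more negative than that of miR-206, while 10 miRNAs had a smaller p. Without diabetic 4 the difference was −0.87 (limma adjusted p = 0.194), so that array moved it by more than 1.5 times. It passed in 3 of 25 other ways of processing, among them the normexp background correction (−1.09, limma adjusted p = 0.000283). With normexp the SE was nearly the same for every tested muscle miRNA, from 0.226 (miR-1) to 0.234 (miR-206). That p thus reflects a spread pooled over miRNAs more than the spread of miR-206 itself.

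Fitted as probes, A_54_P1177 differed by −1.54 (SE 0.43, limma adjusted p = 0.0503) and A_54_P1178 by −1.30 (SE 0.43, limma adjusted p = 0.125). In that fit 0 of 207 probes (0%) passed as lower on the diabetic arrays. Over arrays where the probe was detected, the coefficient of variation between spots was 4.98% to 21.3% (median 7.71%) for A_54_P1177 and 7.51% to 20.3% (median 12.9%) for A_54_P1178.

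miR-208b was close to the limit of detection, and no difference between the groups could be shown. Its intensity was 2.02, 32.9, 12.7 and 28.3 on control arrays 1 to 4 (19.0 ± 14.2, SD, n = 4). It was 5.12, 19.1, 25.7 and −1.54 on diabetic arrays 1 to 4 (12.1 ± 12.5, SD, n = 4). In each group 2 arrays were high and detected, control 2 and 4 and diabetic 2 and 3. In unscaled intensity the groups overlapped in part: control 2 and 4 lay above every diabetic array, diabetic 4 lay below every control array, and the other 5 arrays were interleaved. After scaling, control 2 (log2 level −4.23) lay below diabetic 3 (−4.01). A looser flag of the scanner software, that a spot is positive and significantly above background, was set for 113 of its 149 spots (75.8%). The scanner software itself called miR-208b detected on 5 arrays, control 2, 3 and 4 and diabetic 2 and 3.

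On the scaled log2 axis, values under the floor of −5.95 were set to it; the floor is the 1st percentile of detected levels. miR-208b was at −4.23, −4.73 and −3.53 on control arrays 2 to 4, and at the floor on control 1. It was at −4.65 and −4.01 on diabetic arrays 2 and 3, and at the floor on diabetic 1 and 4. The means were −4.61 ± 1.02 for control and −5.14 ± 0.97 for diabetic arrays (SD, n = 4 each), and 3 of the 8 values were the floor itself. The difference was −0.53 (SE 0.54, 95% interval −1.71 to 0.65, limma adjusted p = 0.699), an interval with values on both sides of 0. The probes A_54_P3218 and A_54_P4412, fitted with the floor of the probe fit, differed by −0.24 (SE 0.32, limma adjusted p = 0.773) and −0.25 (SE 0.29, limma adjusted p = 0.736). They rose and fell together across the arrays, with a Pearson r of 0.999.

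**Figure D2:**
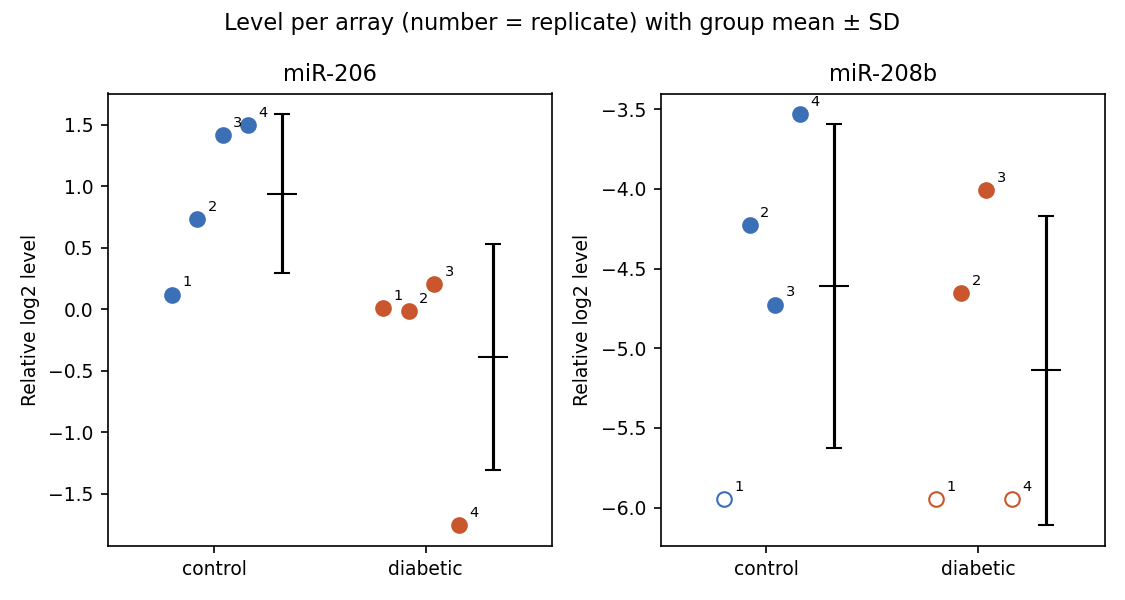
Relative log2 level (y axis; 0 is the array's 75th percentile) of miR-206 and miR-208b on each control and diabetic array, with the replicate number beside each point and the group mean ± SD (n = 4) in black; open points lie at the floor of −5.95. Control 1 is the lowest control array for both miRNAs and diabetic 4 the lowest diabetic array for miR-206, while diabetic 1 and 4 are both at the floor for miR-208b.

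miR-499 gave no level that could be compared. Its intensity was 1.13, 11.9, 4.48 and 6.56 on control arrays 1 to 4 (6.01 ± 4.50, SD, n = 4). It was 1.15, 6.73, 9.47 and 0.0812 on diabetic arrays 1 to 4 (4.36 ± 4.49, SD, n = 4). The highest value, on control 2, was below the lowest detected probe of that array at 19.3, and both groups were not well above background, so no fold or test is given. The probes were not silent: 88 of 154 spots (57.1%) were flagged as positive and significantly above background, and the scanner software called the miRNA detected on control 2 and diabetic 3. For the heart miRNA miR-208a the same looser flag was set on 4 of 153 spots (2.61%), with intensities of −4.999 to −0.965 on control and −2.28 to −1.22 on diabetic arrays. miR-208a, which differs from miR-208b at only a few bases, was thus at background on arrays where miR-208b was detected.

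The faint intensities of miR-208b and miR-499 are set side by side only as a description, since miR-499 had 0 spots well above background. Over the 8 arrays, their scaled intensities without a floor had a Pearson r of 0.94, and 0.94 again with group means removed. The values for miR-206 and miR-208b were 0.71 and 0.74, and those for miR-206 and miR-499 were 0.57 and 0.59. These are descriptions, given without p, since the points share the array and its scaling. The correlation with the array's brightness (log2 of the 75th percentile) was 0.18 for miR-206, 0.52 for miR-208b and 0.65 for miR-499; for the unscaled intensities it was 0.59, 0.76 and 0.84. The part of array brightness in the r between miR-208b and miR-499 was not tested. With the scaled intensity of miR-208a on the same arrays, the r was 0.25 for miR-208b and 0.14 for miR-499.

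**Figure D3:**
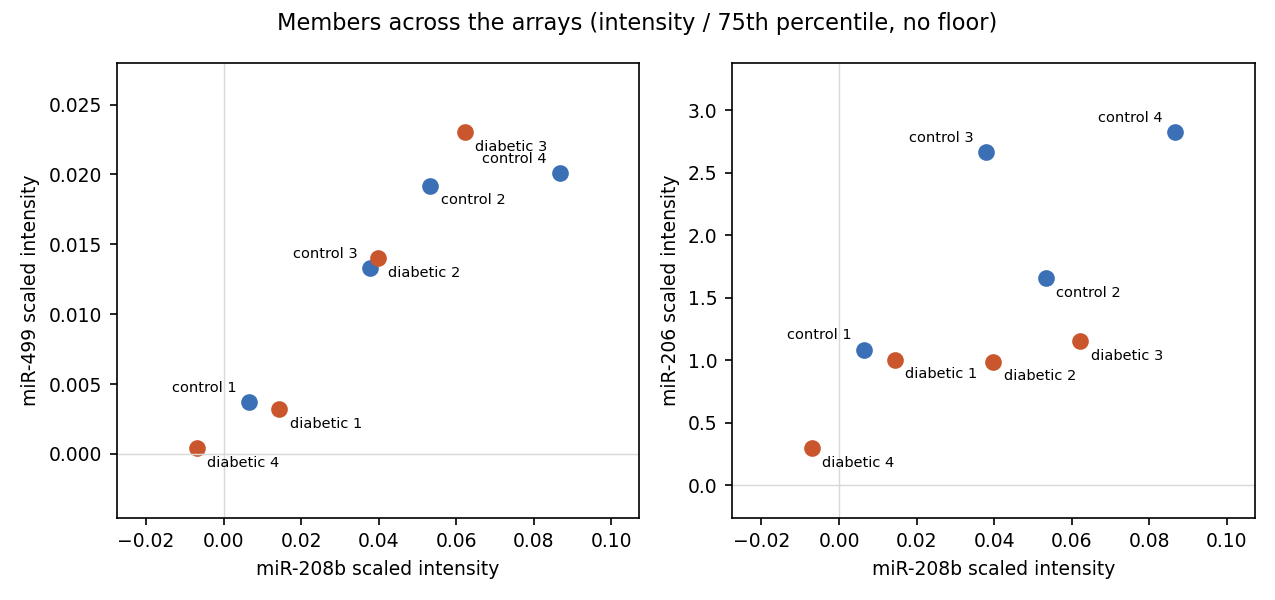
Scaled intensity (intensity divided by the array's 75th percentile, no floor) of miR-208b (x axes) against miR-499 (left) and against miR-206 (right), 1 point per array, blue for control and orange for diabetic. With miR-499, whose spots were not well above background, r was 0.94, while with miR-206 the control arrays 2, 3 and 4 lie above the diabetic arrays.

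The other muscle miRNAs had smaller differences than miR-206, most of them positive. Of 9 listed muscle miRNAs, 7 were tested, miR-206 and miR-208b among them. Of these 7, 0 passed in either direction and 3 had a negative difference (miR-206, miR-208b and miR-486). Their median difference was 0.09, against −0.06 over all 126 tested miRNAs (68 negative, 58 positive). The difference in miR-1 was 0.34 (SE 0.22, limma adjusted p = 0.518). That in miR-133a was 0.09 (SE 0.28, limma adjusted p = 0.879), and that in miR-133b 0.11 (SE 0.27, limma adjusted p = 0.869). The differences were 0.51 for miR-133a* (SE 0.25, limma adjusted p = 0.383), the other strand of the miR-133a hairpin, and −0.02 for miR-486 (SE 0.28, limma adjusted p = 0.958), a muscle miRNA that red cells also make in quantity. The signs for miR-133a, miR-133b and miR-486 changed with the scaling or with the arrays kept; those of miR-1 and miR-133a* did not in the 25 alternatives run. The log2 level of miR-1, known for promoting muscle differentiation, was 4.11 to 4.88 on control and 4.91 to 4.996 on diabetic arrays. These groups did not overlap, as held for 10 of the 126 miRNAs (7.94%) with the diabetic arrays higher; with the diabetic arrays lower it held for 1 (0.794%), which was not miR-206.

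**Figure D4:**
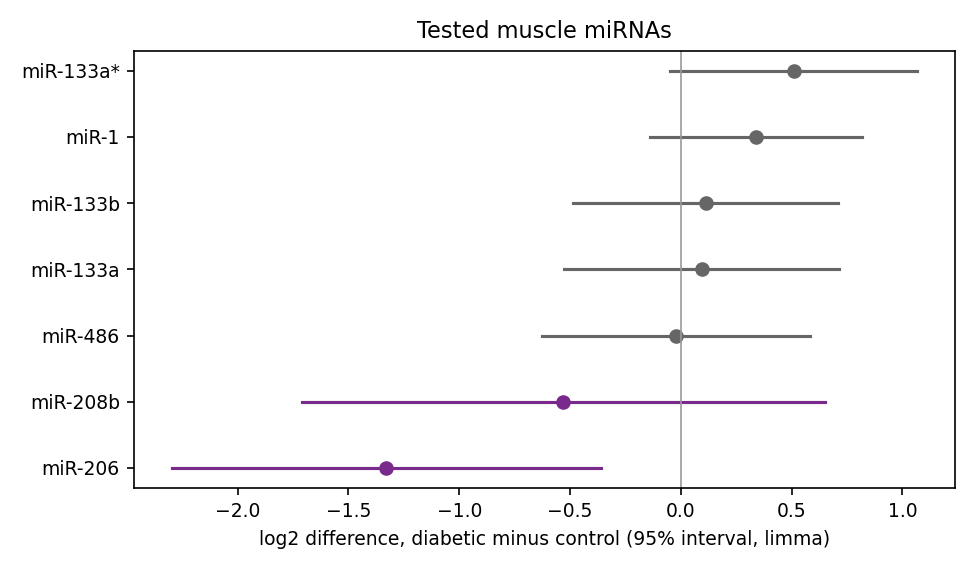
Difference in log2 level, diabetic minus control (x axis), of the 7 tested muscle miRNAs with 95% intervals from limma (n = 4 arrays per group); miR-206 and miR-208b are in purple. The interval of miR-206 (−2.30 to −0.36) is the only 1 of the 7 that does not reach 0, and its adjusted p was 0.132.

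Set against another muscle miRNA on the same array, the difference in miR-206 does not depend on how arrays are scaled to each other by a single factor. The log2 level of miR-206 minus that of miR-133b, its genomic neighbour, was −5.38, −3.63, −3.68 and −3.77 on control arrays 1 to 4 (−4.12 ± 0.84, SD, n = 4). It was −5.28, −5.07, −4.62 and −7.27 on diabetic arrays 1 to 4 (−5.56 ± 1.17, SD, n = 4). Control 1 again lay among the diabetic arrays. The groups differed by −1.44 (two-sided exact permutation test, p = 0.114). The level of miR-206 minus that of miR-1 was −4.51, −3.38, −3.44 and −3.38 on control arrays 1 to 4 (−3.68 ± 0.56, SD, n = 4). It was −4.94, −4.99, −4.71 and −6.75 on diabetic arrays 1 to 4 (−5.35 ± 0.94, SD, n = 4). Here every diabetic array lay below every control array, and the groups differed by −1.67. The p was 0.0286 in a two-sided exact permutation test, the smallest that the 70 assignments of 4 against 4 arrays can give, and 0.0571 after Benjamini-Hochberg adjustment over the 2 relations. For miR-133b the exact p after this adjustment was 0.114. Without any 1 of the diabetic arrays the exact p was 0.0571. The higher level of miR-1 on the diabetic arrays (0.34) is part of this difference, and binding of miR-1 by the miR-206 probes was not tested. Probes of different miRNAs bind with different strength, so the size of such a difference on 1 array is not a ratio of molecules.

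**Figure D5:**
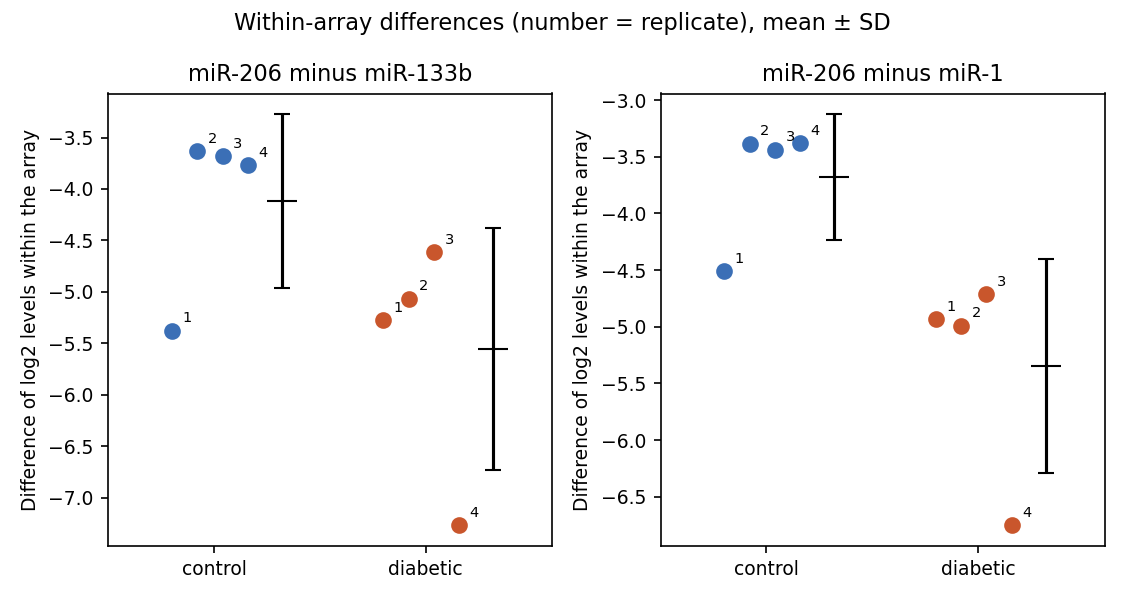
Log2 level of miR-206 minus that of miR-133b (left) and of miR-1 (right) on the same array (y axes), for control and diabetic arrays, with replicate numbers and the group mean ± SD (n = 4) in black. On the right all diabetic arrays (−6.75 to −4.71) lie below all control arrays (−4.51 to −3.38), and on the left control 1 (−5.38) lies among the diabetic arrays.

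The miRNAs whose log2 levels followed miR-206 most closely over the 8 arrays were miR-410 (r = 0.84, or 0.70 with group means removed), miR-154 (0.78, or 0.60) and miR-299* (0.70, or 0.46). Their hairpins are all on chromosome 12 in the gene table. The chromosome was looked up only for the closest miRNAs, and not for those with the lowest r, such as miR-494 (−0.69 with miR-206). Whether the miRNAs of chromosome 12 followed miR-206 as a set was not tested. miR-208b came next, with 0.67 (0.68 with group means removed). Their own differences were −1.18 for miR-410, −0.77 for miR-154 and −1.001 for miR-299*. For miR-208b the closest were miR-136 (0.69, or 0.70), itself detected on 4 arrays and at the floor on 2, then miR-206 (0.67, or 0.68) and miR-301a (0.67, or 0.77). The hairpin of miR-136 is also on chromosome 12, and that of miR-301a is on chromosome 11. The r of miR-206 with the other tested muscle miRNAs was negative for miR-486 (−0.50, or −0.72 with group means removed), miR-133b (−0.39, or −0.39) and miR-133a (−0.36, or −0.38). For miR-133a* (−0.30, or 0.25) and miR-1 (−0.30, or 0.23) the sign turned once group means were removed. These likenesses are descriptions over 8 arrays that share 1 slide.

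Of 21 other miRNAs listed for their known part in myogenesis and regeneration, 12 were tested, 0 passed as lower and 2 rose on the diabetic arrays, where 4.76% of all tested miRNAs were higher. Of the 12, 5 had a negative difference, and the median difference was 0.11. Those that rose were miR-29c (1.25, SE 0.20, limma adjusted p = 0.00642) and miR-29b (0.99, SE 0.22, limma adjusted p = 0.0283), which are known to restrain extracellular matrix genes and to act in muscle differentiation. Their family member miR-29a did not pass (0.76, SE 0.21, limma adjusted p = 0.0581). The summed scaled level of the list, these 3 included, was 8.34 to 12.2 on control and 14.4 to 16.6 on diabetic arrays. Bright members weigh most in such a sum, and miR-29a had the highest mean log2 level of the 12 (1.70 on control, 2.47 on diabetic arrays). A sum without the 3 miR-29 members was not made, so these values do not show a rise of the list as a whole.

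Markers of other cells were measured on the same arrays. The leukocyte list had 3 of 6 members tested, miR-223 (−1.29), miR-342-3p (−0.80) and miR-155 (−0.20), all negative and 0 past the threshold, with a summed scaled level of 0.347 to 1.85 on control and 0.189 to 0.628 on diabetic arrays. The fibroblast list had 2 of 3 members tested, miR-199a-5p and miR-214, with 0 past the threshold, a median difference of −0.60 and a sum of 0.0930 to 0.235 on control and 0.0955 to 0.114 on diabetic arrays. The erythroid list had 2 of 3 tested, 0 past the threshold, a median of −0.17 and a sum of 1.52 to 2.68 on control and 1.02 to 1.97 on diabetic arrays. The endothelial miR-126-3p differed by −0.07, the smooth muscle miR-143 by −0.03 and the liver miRNA miR-122 by 0.08, and 0 of them passed. All tested leukocyte, fibroblast, erythroid, endothelial and smooth muscle miRNAs thus had negative differences, as miR-206 had. So had 68 of all 126 tested miRNAs, whose median difference was −0.06. Whether the sign was more frequent in these lists was not tested. The part of these cells in the difference in miR-206 was not tested.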

How the data were processed

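The deposited values are spot intensities of 8 arrays from 1 slide. Per the file headers, Feature Extraction 10.5 subtracted a spatially detrended background to make the processed intensity, and the array design names build mm9; each array received 100 ng of RNA, per the labels' protocols. Any normalization by the authors is not given in the sources used here. The deposited files also carry, as other values, flags for outlier, saturated and detected spots, per the file headers. Of 12493 spots per array, 11340 belonged to 1672 mouse miRNA probes, and 12.4% of probe values were detected.

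Outlier spots were dropped, spots averaged per probe, each array's values divided by its 75th percentile (taken over 152 probes, those detected on every array), and the probes of a miRNA averaged. The floor (−5.95 on the log2 scale) was then set and log2 taken, with no pseudocount; 24 of 1008 tested values lay at it. limma 3.58.1 (R 4.3.3; lmFit, eBayes, group as the single term) compared 4 with 4 arrays over 126 miRNAs with Benjamini-Hochberg adjustment. The 2 within-array differences were compared with exact permutation tests. This fit was first tested on simulated data. The number of arrays limits the precision.

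The members, lists and tests were chosen with earlier results of these data known. Named were the 3 members, every tested muscle miRNA, members of other lists past the threshold (and, for the marker lists, the tested members), and the 3 miRNAs most like each tested member. miR-199a-3p of the fibroblast list was not matched to an array name. Alternatives changed the scaling, background, summaries, filter, floor, block, weights, variance prior and arrays kept. Because the files used hold no mean spot signal, normexp (offset 50) was run on median signals. Same-numbered arrays, which also shared a slide column, deviated together with r of 0.207, 0.0816, 0.506 and −0.289, so the numbers were not taken as pairs. The replicate block among the alternatives was thus a block by slide column too.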

Additional observations from a re-analysis of the deposited data

Results flagged for a closer look

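Of 22 groups of 4 arrays checked for an array standing apart, 4 held one, where chance alone gives about 1 in 20. The measure is the gap from the outermost array to its nearest neighbour, divided by the group's range; arrays above Dixon's 95% critical value are given. Diabetic 4 stood apart in the log2 level of miR-206 (−1.75; ratio 0.888) and in miR-206 minus miR-1 (−6.75; ratio 0.863). Control 1 stood apart in miR-206 minus miR-133b (−5.38; ratio 0.919) and in miR-206 minus miR-1 (−4.51; ratio 0.950). These results use the same miR-206 values and are not independent of each other. Diabetic 4 was the dimmest array, with a 75th percentile of 219 and 102 miRNAs detected, and control 1 the dimmest control array (308, with 122 miRNAs detected). The part of array brightness in these values was not tested.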

How the results depend on the processing

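The difference in miR-206 was negative in all 25 alternatives, from −1.60 (without control 1) to −0.87 (without diabetic 4). It passed the limma test in 3 of them: normexp (−1.09, adjusted p = 0.000283), only miRNAs detected on all 8 arrays (−1.33, adjusted p = 0.0302, fewer miRNAs being tested) and the replicate block (−1.33, adjusted p = 0.0426). The replicate number was also the column on the slide. The normexp p reflects a spread pooled over miRNAs more than that of miR-206 itself, since its SE hardly differed between the tested muscle miRNAs. miR-206 minus miR-133b was negative and did not pass in any of the 20 alternatives, several of which could not move it, since a single scaling factor cancels within an array; leaving out 1 array gave −1.86 to −0.87. miR-206 minus miR-1 was −1.95 to −1.20 with 1 array left out, with an exact p of 0.0571 without any 1 of the diabetic arrays; with the replicate block the value was −1.67 (exact permutation p = 0.125, the smallest that 4 pairs can give, so neither within-array difference could pass with this block). miR-208b passed in 0 of 24 alternatives and ranged from −0.98 (without control 1) to −0.06 (normexp). With 1 array left out it was −0.98 to −0.17. The planned difference of miR-499 is not reported under any alternative, since both groups were not well above background. Only the fit with no filter included miR-499.

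The 6 miRNAs higher on the diabetic arrays became 0 with no scaling, 2 when miRNAs detected on at least 1 array were tested, 2 with no filter, and 2 to 7 with 1 array left out. The 0 lower became 1 with scaling to a percentile of all mouse probes, 2 with the median of detected probes, 3 with normexp, 2 with the brightest probe, 1 with the total gene signal, 2 with detection on all 8 arrays, 3 with the replicate block, 1 with array weights and 0 to 3 with 1 array left out. The cause was not tested.

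The sign turned for miR-133a with quantile normalization (−0.084), no scaling (−0.011) and array weights (−0.11), and with 1 array left out (−0.15 to 0.28). It turned for miR-133b with quantile normalization (−0.072) and array weights (−0.11), and with 1 array left out (−0.12 to 0.26). It turned for miR-486 with scaling to a percentile of all mouse probes (0.30), the brightest probe (0.0029) and the total gene signal (0.0022), and with 1 array left out (−0.16 to 0.22). That scaling put the median of all differences at 0.26 in place of −0.06, and quantile normalization put it at 0.09. The precision for miR-208b and miR-499 is limited by signal close to background, and for miR-206 by the spread between arrays.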

Other observations

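Chosen after its values were seen, miR-494 had the lowest r with miR-208b of all tested miRNAs, −0.86 (−0.85 with group means removed), and −0.69 with miR-206. Its log2 level was −1.22, −2.69, −2.91 and −3.41 on control arrays 1 to 4 and −2.06, −2.30, −2.54 and −1.87 on diabetic arrays 1 to 4. miR-1224, chosen in the same way, had the lowest r with miR-206, −0.79 (−0.89 with group means removed), and −0.81 with miR-208b. Its log2 level was 0.69, −0.10, −0.20 and −0.23 on control arrays 1 to 4 and 0.13, 0.29, −0.29 and 0.81 on diabetic arrays 1 to 4. Both were highest among the control arrays on control 1, where miR-206 and miR-208b were lowest. The groups did not separate, with differences of 0.37 for miR-494 (SE 0.40, limma adjusted p = 0.699) and 0.20 for miR-1224 (SE 0.29, limma adjusted p = 0.792).

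The SD of miR-206 among the diabetic arrays (0.92 on the log2 scale) was exceeded by 4 of the 126 tested miRNAs and that of miR-208b (0.97) by 3, while the control group had the larger SD for 113 of the 126. For miR-206 this SD comes mainly from diabetic 4 (−1.75), since the other diabetic arrays lay between −0.0139 and 0.20. For miR-208b, 2 of the 4 diabetic values were the floor itself, so its SD depends on where the floor was set.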
